A study of Mus musculus with 18 samples.

Results

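Slc6a14, Leap2 and Gimd1 are 3 genes, of 55487 genes counted in the series, whose level differed many-fold between ileum libraries of the same genotype. They were picked by symbol, after their values in the genotype comparisons and their relation to each other had been seen in these data, so those values are given as a description and test nothing. The series compared the ileum of mice that overexpress the nuclear receptor PPARα in the intestinal epithelium with that of control mice. All 18 mice were adult male or female C57BL6/J animals on chow, received 100 mg/kg tamoxifen in 3 daily intraperitoneal injections at 8 to 13 weeks of age, and were sampled 2 weeks after the last one. The 6 control mice (3 female, 3 male) were of the CAG-Ppara,-EGFP strain but lacked Villin-CreERT2, so that their transgene, in a copy number not given in the sources used here, had no Cre to invert it, the 6 IEC-Ppara heterozygous mice (2 female, 4 male) carried Villin-CreERT2 and 1 copy of the CAG-Ppara,-EGFP transgene at Col1a1, and the 6 IEC-Ppara homozygous mice (2 female, 4 male) carried Villin-CreERT2 and the transgene on both alleles. Villin-CreERT2 acts in the intestinal epithelium, the transgenic strain was made by injecting Cas9, guide and donor into C57BL6/J eggs, and the RNA was that of the whole gut wall, so a lower level can reflect fewer cells of a type or less RNA per cell, and these cannot be told apart.

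Slc6a14 encodes a sodium- and chloride-dependent transporter that takes up neutral and cationic amino acids, and it is known for its high level in the colon and lung and in inflamed gut. Leap2 encodes a small secreted peptide of the liver and small intestine that blocks GHSR, the receptor of the stomach and gut hormone ghrelin, so that LEAP2 and ghrelin oppose each other in the control of feeding. Gimd1 is named for a GTP-binding domain of the kind found in the GIMAP proteins of lymphocytes, and little is known of its function. PPARα is a fatty acid-sensing receptor that pairs with RXR and switches on genes of fatty acid oxidation and ketone synthesis.

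The libraries held 38528522 to 50376371 counted read pairs. Ppara, the gene carried by the transgene, read 25.8 to 47.4 CPM (counts scaled to the library total) in control libraries, 107 to 196 CPM in IEC-Ppara heterozygous libraries and 184 to 279 CPM in IEC-Ppara homozygous ones, so every library of mice with Villin-CreERT2 lay above every control library and the highest heterozygous value lay above the lowest homozygous one. Fabp6, a marker of the ileum, lay between 1914 and 5489 CPM, and the summed level of 6 colon and caecum markers was at most 2.31 CPM, reached in 1 homozygous library through Car1. Median Fabp6 was 4065.5 CPM in control, 3940.1 CPM in heterozygous and 2716.7 CPM in homozygous libraries. The median summed level of 11 distal intestine genes was 7445.6, 7556.6 and 5390.5 CPM in that order. For 9 proximal intestine genes it was 294, 356 and 408 CPM. Of these, Ada alone had medians of 66.6, 116 and 198 CPM. In homozygous against control libraries 4 of the 5 tested proximal genes had a higher fitted value and 1 a lower one, with a median log2 difference of 0.04. For the 11 distal genes 6 were higher and 5 lower, with a median of 0.03. B cell markers set 4 libraries apart: the summed level of 10 such genes was 18.4 to 567 CPM in control libraries, 15.2 to 321 CPM in heterozygous ones and 12.6 to 94.6 CPM in homozygous ones, and control 2, control 3, heterozygous 2 and homozygous 1 held the high values. The summed level of 10 smooth muscle genes was 522 to 6016 CPM in control libraries, 664 to 4401 CPM in heterozygous ones and 4122 to 9517 CPM in homozygous ones. Control 6 and heterozygous 3 stood apart, with a mean log2 CPM of these genes of 4.82 and 5.13, against 7.07 to 8.87 in the other libraries.

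In the GRCm38 coordinates of the count files Slc6a14 (ENSMUSG00000031089) lies on the plus strand of chromosome X at 21714896 to 21742355, Leap2 (ENSMUSG00000036216) on the minus strand of chromosome 11 at 53422181 to 53423170, and Gimd1 (ENSMUSG00000091721) on the plus strand of chromosome 3 at 132629820 to 132645351. None of the 3 shares an annotated exon base with another gene. The 150 bases before the annotated start of Slc6a14 and of Gimd1 are shown because both genes move widely between libraries and in opposite directions; they are RefSeq GRCm38.p6 sequence of the plus strand, 5′ to 3′, at chrX:21714746-21714895 and chr3:132629670-132629819, and capitals mark a GATA match (AGATAA) and then an HNF1 half-site match (GTTAAT, here on the other strand).
Slc6a14: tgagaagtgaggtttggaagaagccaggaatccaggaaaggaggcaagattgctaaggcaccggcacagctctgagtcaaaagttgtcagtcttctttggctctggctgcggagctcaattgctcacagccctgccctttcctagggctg
Gimd1: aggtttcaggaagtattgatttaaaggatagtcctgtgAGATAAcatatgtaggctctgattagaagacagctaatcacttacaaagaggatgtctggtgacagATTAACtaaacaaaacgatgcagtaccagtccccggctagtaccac

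Promoter windows of 300 bases, from 250 before to 50 after a RefSeq start, were searched on both strands for 6 motifs of factors known in the intestine. One window was listed for Slc6a14 and 3 for Gimd1, and Leap2 was not matched. The PPAR-RXR element AGGTCANAGGTCA, which 0.0396% of all 32851 windows held, was not among the letters of any of the 4 windows, nor was its half-site AGGTCA (16.3% of windows; it is contained in the full element), nor the CDX motif TTTATNG (10.9%). An HNF4 match, CAAAGTCCA, which 0.475% of windows held, stood at chr3:132629833-132629841 in 2 of the 3 Gimd1 windows, just inside the start annotated in the count files. The AGATAA (11.2% of windows) and GTTAAT (7.1%) matches shown in capitals were in the same 2 windows, and the Slc6a14 window held none of the 6 motifs. A match of letters is not a binding site, and these data hold no measurement of binding.

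Slc6a14 was the most variable of the 3. Control libraries read 0.478 CPM at the lowest, 7.50 CPM at the median and 44.7 CPM at the highest, from raw counts of 22 to 2119. Heterozygous libraries read 1.49, 3.91 and 17.4 CPM in the same order, and homozygous libraries 11.8, 53.3 and 75.1 CPM, from counts of 509 to 3708. Control 5, at 44.7 CPM, stood among the homozygous libraries and above homozygous 3 (39.4 CPM), while homozygous 1, at 11.8 CPM, stood below heterozygous 4 (17.4 CPM). So 4 of 6 homozygous libraries lay above every control library and 5 of 6 above every heterozygous library, and the ranges of all 3 genotypes overlapped. Between the lowest and the highest of the 18 libraries Slc6a14 differed 157-fold.

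Leap2 was lower in most homozygous libraries. Its lowest, median and highest values were 1.54, 3.67 and 5.65 CPM in control, 2.00, 3.08 and 6.24 CPM in heterozygous, and 0.686, 1.08 and 2.58 CPM in homozygous libraries. Raw counts were small, from 73 to 260 in control, 91 to 247 in heterozygous and 32 to 111 in homozygous libraries. Control 5 again held the lowest control value and homozygous 1 the highest homozygous value, and 5 of 6 homozygous libraries lay below every control library and below every heterozygous library. The control and heterozygous values lay over each other, with group means of 3.66 ± 1.40 CPM (SD, n = 6) and 3.56 ± 1.68 CPM (SD, n = 6).

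Gimd1 read 0.844, 4.75 and 12.6 CPM at the lowest, median and highest in control libraries, 1.22, 2.66 and 6.14 CPM in heterozygous libraries and 0.500, 0.719 and 1.35 CPM in homozygous libraries. Its raw counts were 40 to 501, 52 to 291 and 22 to 58 in that order. The control library with 0.844 CPM was control 5 once more, and homozygous 1 and homozygous 4, at 1.35 and 1.29 CPM, were the only homozygous libraries above it, so 4 of 6 homozygous libraries lay below every control library. On the deposited FPKM scale, which corrects for gene length and so allows genes to be compared, the control medians were 6.91 for Leap2, 3.04 for Gimd1 and 2.18 for Slc6a14. The control ranges of the 3 overlapped on that scale, at 2.90 to 10.6 for Leap2, 0.540 to 8.08 for Gimd1 and 0.139 to 13.0 for Slc6a14. In homozygous libraries Slc6a14 came first with a median FPKM of 15.5, then Leap2 with 2.03 and Gimd1 with 0.461. There the ranges of Slc6a14 (3.45 to 21.9) and Leap2 (1.29 to 4.86) overlapped, and that of Gimd1 (0.320 to 0.864) lay below both.

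**Figure D1:**
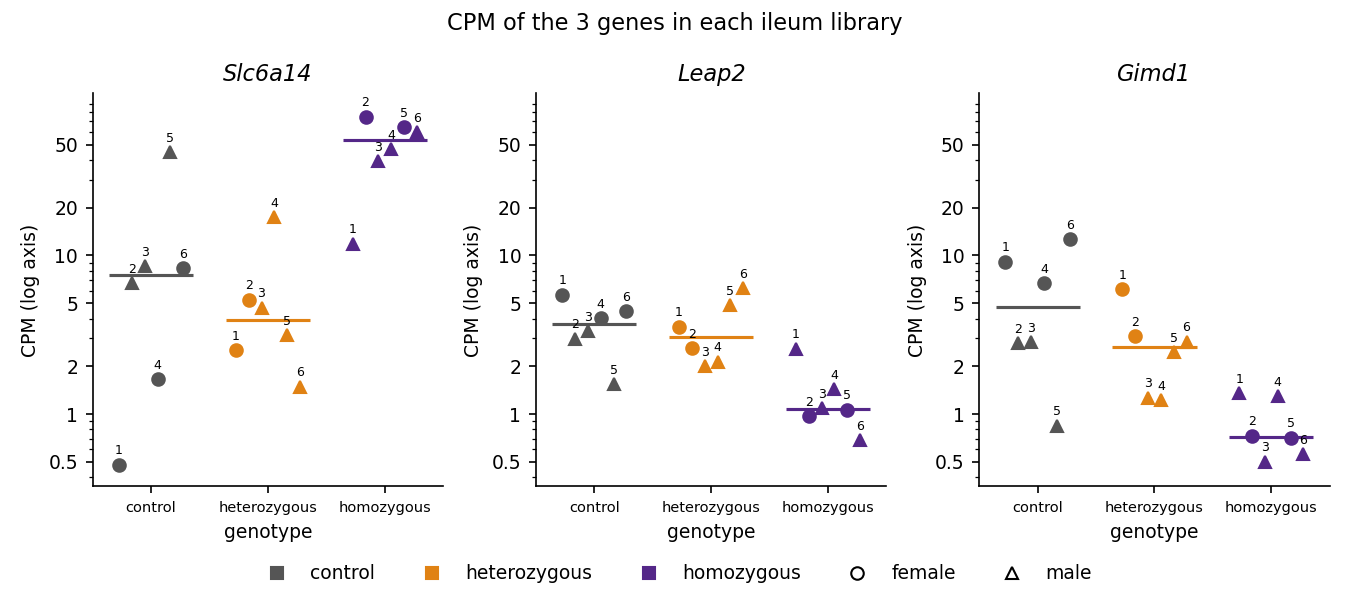
CPM on a log axis for Slc6a14, Leap2 and Gimd1 in each of the 18 ileum libraries by genotype; circles are female and triangles male mice, numbers are replicates and horizontal lines are group medians. Control 5 lies near the homozygous libraries in all 3 panels (44.7, 1.54 and 0.844 CPM), and homozygous 1 lies nearest to the other genotypes for Slc6a14 and Leap2 (11.8 and 2.58 CPM).

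Fitted across all genes with edgeR, the log2 difference of homozygous from control libraries was 2.09 for Slc6a14 (SE 0.78), −1.49 for Leap2 (SE 0.37) and −2.78 for Gimd1 (SE 0.57), which is 4.27 times, 0.355 times and 0.146 times the control level. Gimd1 was past the adjusted p threshold of 0.05 and the other 2 were not, while 0.411% of the 12645 protein-coding genes tested were past it in this comparison; limma-voom called none of the 3 and DESeq2 called Leap2 and Gimd1. All 3 had an unadjusted p under 0.05 by each tool, as had 8.06% of all genes by edgeR. As the genes were chosen with this comparison known, nothing is read from these counts. Without control 5 the difference of Slc6a14 was 3.26, against 2.09 with it. Without control 5 or without homozygous 1 Leap2 passed the threshold too, at −1.65 and −1.81, and Gimd1 no longer passed it without any 1 of control 1, 4 or 6 or homozygous 2, 3, 4, 5 or 6, with differences of −2.93 to −2.34. With the 4 libraries rich in B cell markers left out, an analysis added after the data had been seen, the differences were 2.06, −1.91 and −3.29 for Slc6a14, Leap2 and Gimd1, and Gimd1 no longer passed (adjusted p = 0.0696 by edgeR).

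Heterozygous libraries differed from control by −1.01 for Slc6a14 (SE 0.77), −0.0063 for Leap2 (SE 0.36) and −1.02 for Gimd1 (SE 0.52) on the log2 scale. None of the 3 passed the threshold by edgeR, where 0.293% of all genes did, and none had an unadjusted p under 0.05, where 5.29% of all genes did; DESeq2 and limma-voom called 0 as well, with 1 and 0 unadjusted p under 0.05. The interval of the Leap2 difference ran from −0.70 to 0.69. The Slc6a14 value rested on control 5, since without that library it was 0.15. Homozygous libraries differed from heterozygous by 3.10 for Slc6a14 (SE 0.81), −1.49 for Leap2 (SE 0.37) and −1.76 for Gimd1 (SE 0.55). All 3 had an unadjusted p under 0.05 in that comparison and 0 passed after adjustment by edgeR, DESeq2 or limma-voom, where 7.61% and 0.00791% of all genes did by edgeR. Each of these comparisons shares its libraries with another, so they are not separate evidence.

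**Figure D2:**
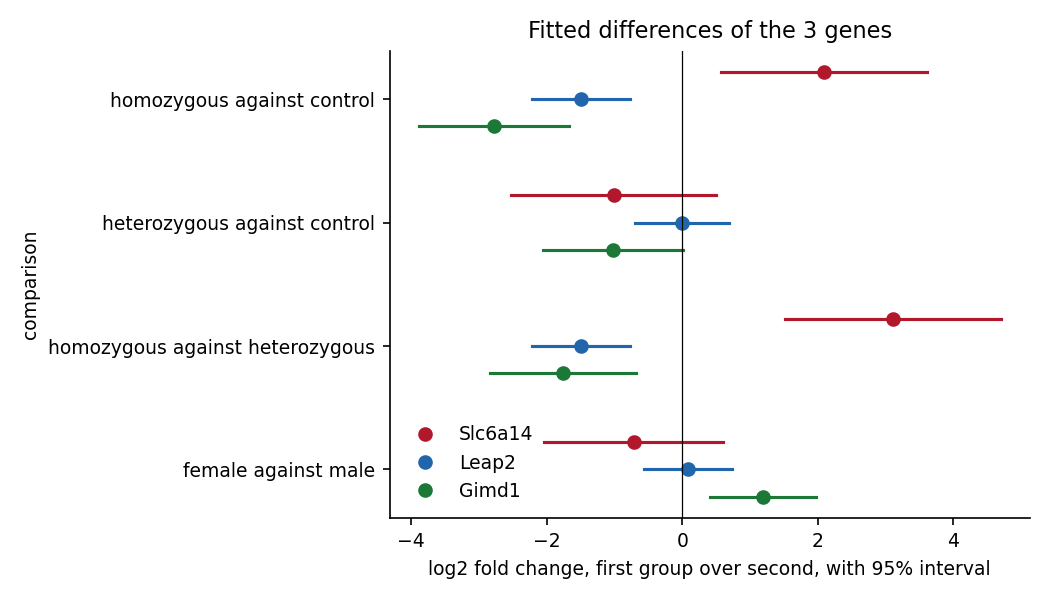
Fitted log2 differences (points) with 95% intervals (lines) of Slc6a14, Leap2 and Gimd1 for the 3 genotype comparisons and for female against male libraries, with the first group over the second. Leap2 in heterozygous against control lies at −0.0063, and Slc6a14 in homozygous against heterozygous at 3.10.

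Across the 18 libraries Slc6a14 ran opposite to Leap2 and Gimd1. Pearson's r of log2 CPM (n = 18) was −0.906 between Slc6a14 and Leap2, −0.810 between Slc6a14 and Gimd1 and 0.860 between Leap2 and Gimd1; Spearman's rho was −0.895, −0.794 and 0.874. Within the 6 libraries of one genotype Slc6a14 and Leap2 had r of −0.871 in control, −0.798 in heterozygous and −0.879 in homozygous libraries. For Slc6a14 and Gimd1 these were −0.727, −0.642 and −0.579, and for Leap2 and Gimd1 0.944, 0.527 and 0.819. With the mean of each genotype subtracted the 3 correlations were −0.799, −0.690 and 0.743. The points of a correlation share the total count of their library, and the relation of the genes to each other was part of how they were picked, so no p is given.

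**Figure D3:**
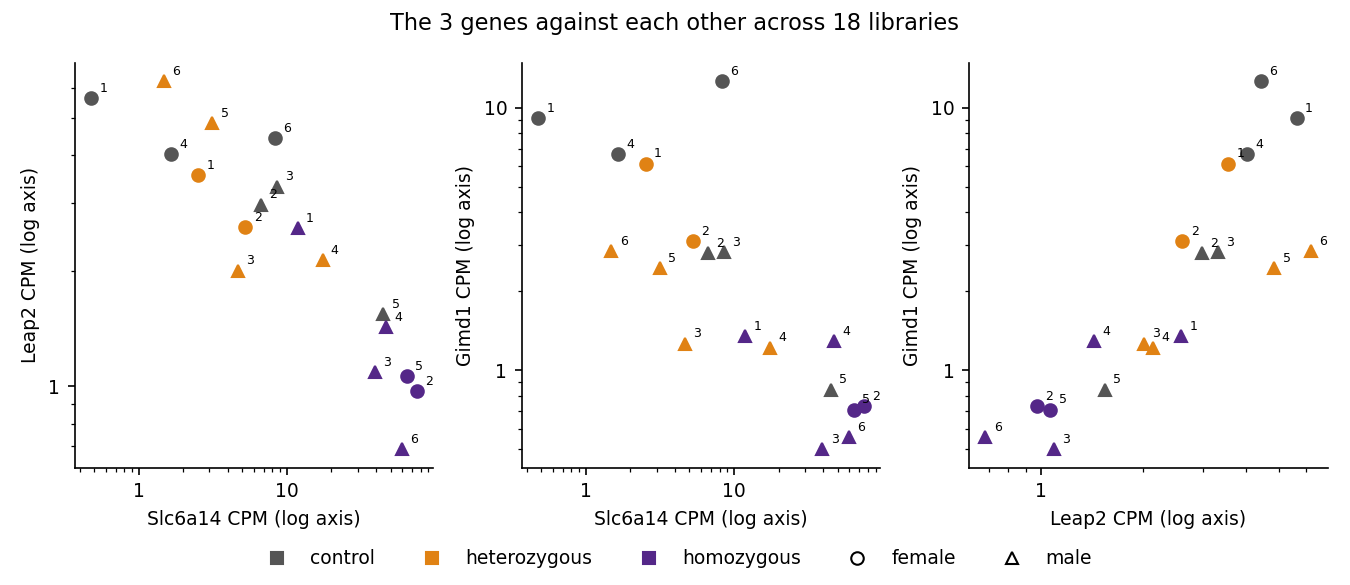
Each pair of the 3 genes in CPM on log axes, one point per library, coloured by genotype and shaped by sex, with replicate numbers. Control 5 (44.7 CPM of Slc6a14 and 1.54 CPM of Leap2) lies beside homozygous 4, and control 1 (0.478 CPM of Slc6a14) lies at the opposite end.

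Ranks in CPM ran in opposite directions for Slc6a14 and Leap2, and those of Gimd1 followed less closely. Control 1 was the lowest of the 18 for Slc6a14 and the second highest for both Leap2 and Gimd1, and heterozygous 6 was next to lowest for Slc6a14 and the highest for Leap2. Homozygous 2, 5 and 6 held the 3 highest Slc6a14 values and ranked 17, 16 and 18 for Leap2. The highest Gimd1 was that of control 6, which ranked 10 for Slc6a14 and 4 for Leap2, and the lowest was that of homozygous 3, which ranked 6 for Slc6a14 and 15 for Leap2, while heterozygous 6 ranked 6 for Gimd1. Control 5, which stood next to the homozygous libraries for the 3 genes, had the lowest Ppara of all 18 libraries (25.8 CPM). Among the 12645 genes, over the 18 libraries, Slc6a14 had the lowest r of all with Leap2, and Gimd1 had the fourth highest. With genotype means subtracted, 1 gene had a lower r with Leap2 than Slc6a14, and 12 genes had a higher r than Gimd1.

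The gene most like Leap2 was Gip, the incretin hormone of K cells, with r = 0.937 over the 18 libraries and 0.844 with genotype means subtracted. Gip read 1.20 to 6.97 CPM in control libraries, 3.04 to 6.59 CPM in heterozygous ones and 0.171 to 3.72 CPM in homozygous ones. Control 5 had the lowest control value and homozygous 1 the highest homozygous value, as for Leap2, and r within genotypes was 0.887, 0.974 and 0.951. Next came Abcg5 (r = 0.895), a half-transporter that exports sterols, Fabp6 (0.871), which binds bile acids in ileal enterocytes, Gimd1, and Rragd (0.850), a Rag GTPase. Fabp6 reads were on another scale, 1914 to 5489 CPM. Least like Leap2, after Slc6a14, were Fa2h (−0.837), a fatty acid hydroxylase, and Evi5l (−0.837).

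Genes most like Slc6a14 were Evi5l (r = 0.807), Endod1 (0.801), Mboat1 (0.793), a lysophospholipid acyltransferase, Srf (0.785), a transcription factor, and Fa2h (0.777). With genotype means subtracted Mboat1 kept 0.790 and Srf 0.493. The most opposite was Gnpda1, a deaminase of glucosamine-6-phosphate, with r = −0.916 and −0.860 with genotype means subtracted, followed by Leap2 and by the water channel Aqp1 (−0.895). Gnpda1 varied little, from 53.0 to 85.0 CPM, against the 157-fold span of Slc6a14.

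Gimd1 was most like Defa39 (r = 0.888) and, after Leap2, Defa29 (0.854), which are α-defensins of Paneth cells. The α-defensin genes are near-identical copies and only uniquely aligned reads were counted, so these 2 values are uncertain. Abcg5 (0.843) and Rnf208 (0.828) followed. The most opposite were Endod1 (−0.885), Sema3c (−0.854), a secreted semaphorin, and Evi5l (−0.847).

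**Figure D4:**
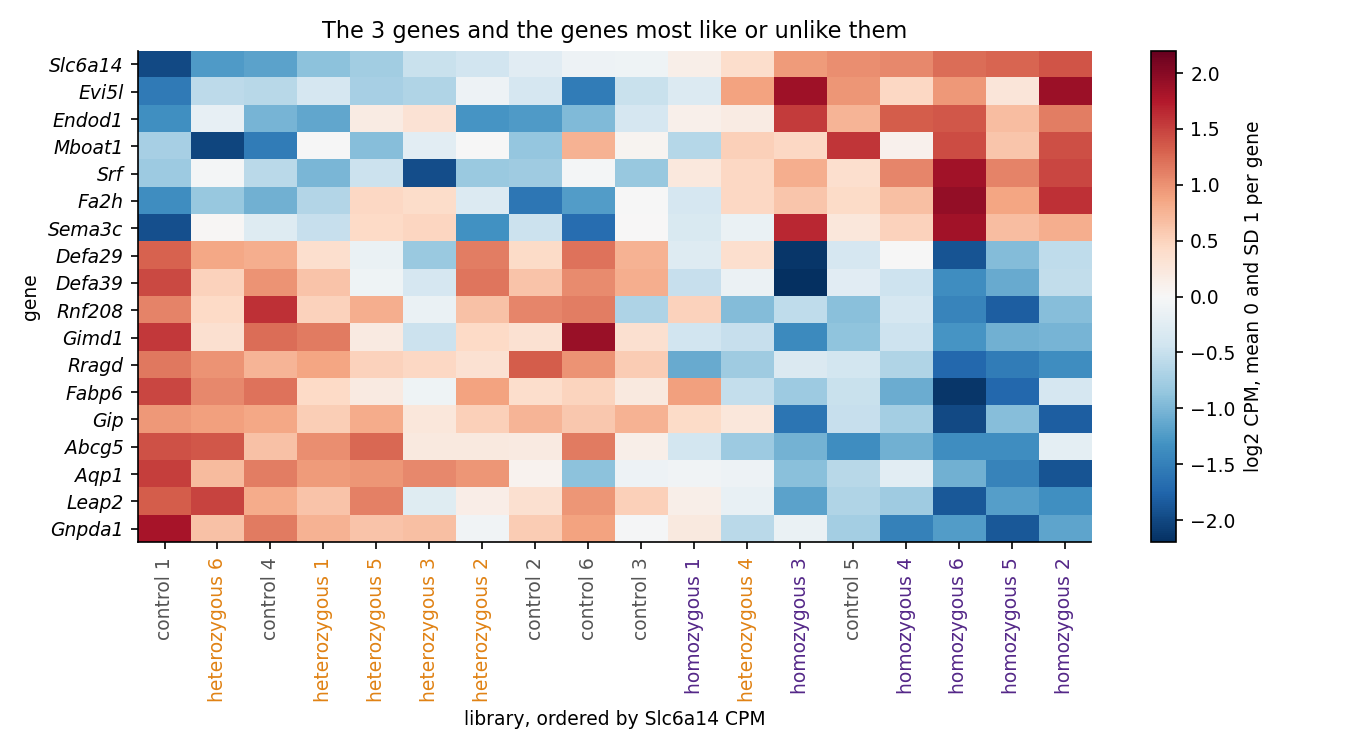
Log2 CPM of Slc6a14, Leap2, Gimd1 and the genes named as most like or most opposite to one of them, each gene scaled to mean 0 and SD 1 over the 18 libraries, with libraries ordered by Slc6a14 CPM from left to right and their names coloured by genotype. Genes are ordered by r with Slc6a14, from Slc6a14 at the top to Gnpda1 (r = −0.916) at the bottom.

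In spread the 3 genes were far from the typical gene. The SD of log2 CPM over the 18 libraries was 2.14 for Slc6a14, 1.37 for Gimd1 and 0.922 for Leap2, which ranked 52, 139 and 313 among 12645 genes, whose median SD was 0.189. Among the 6 control libraries alone the SDs were 2.21, 1.41 and 0.635, at ranks 74, 187 and 947. The members were picked for differing between libraries, so this too is a description.

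Sex was not used in picking the genes, but Gimd1 passed the filter on low values only through 5 female libraries, with 0 male libraries over 3 CPM, so its sex values are given as a description. With genotype in the edgeR model, the Gimd1 difference of female from male libraries was 1.19 on the log2 scale (SE 0.40, interval 0.41 to 1.97), Slc6a14 differed by −0.71 (SE 0.67, adjusted p = 0.998) and Leap2 by 0.08 (SE 0.33, adjusted p = 0.998). Slc6a14 and Leap2 did not pass by edgeR, DESeq2 or limma-voom, where 0.0554% of all genes did by edgeR. Neither had an unadjusted p under 0.05 by edgeR, where 3.39% of all genes did. Gimd1 did not pass by any of the tools either, but nothing is read from its p because of how it passed the filter. Gimd1 was 0.709, 6.14 and 12.6 CPM at the lowest, median and highest in 7 female libraries and 0.500, 1.29 and 2.85 CPM in 11 male libraries, and 5 of 7 female libraries lay above every male one. Those 5 were the control and heterozygous females: control females read 6.67 to 12.6 CPM and control males 0.844 to 2.83 CPM, and heterozygous females 3.11 to 6.14 CPM and males 1.22 to 2.85 CPM. The 2 homozygous females, at 0.709 and 0.730 CPM, lay within the homozygous males (0.500 to 1.35 CPM).

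Fitted within genotypes by edgeR, the Gimd1 difference of female from male was 2.17 in control (SE 0.53), 1.22 in heterozygous (SE 0.53) and −0.31 in homozygous libraries (SE 0.59). The difference between the homozygous and the control value was −2.49 (SE 0.80). None of these 4 passed after adjustment, where 4, 4, 7 and 0 of 12645 genes did in that order. As Gimd1 passed the filter on low values only through female libraries, its 4 values are a description. The 3 control females read 0.478 to 8.32 CPM of Slc6a14 against 6.69 to 44.7 CPM in the 3 control males. For Leap2 these were 4.02 to 5.65 CPM against 1.54 to 3.32 CPM. By edgeR the adjusted p were 0.797 and 0.99987. Homozygous libraries read 64.3 to 75.1 CPM of Slc6a14 in 2 females and 11.8 to 59.8 CPM in 4 males. For Leap2 the females read 0.973 to 1.06 CPM, within the 0.686 to 2.58 CPM of males. The share of all genes whose ranges separate in groups this small was not computed, so nothing is read from these ranges. The fitted differences of female from male for Slc6a14 were −2.45 in control (SE 1.03), −0.81 in heterozygous (SE 1.09) and 0.87 in homozygous libraries (SE 0.97), and for Leap2 0.87 (SE 0.49), −0.34 (SE 0.52) and −0.46 (SE 0.55). The homozygous value differed from the control value by 3.32 for Slc6a14 and −1.33 for Leap2, both with an adjusted p of 0.9998 by edgeR. Control mice were 3 females and 3 males while the other groups had 2 and 4, and with sex in the model the homozygous against control difference of Gimd1 was −2.19 and no longer past the threshold.

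The relation of each gene to the rest of its library was tested against 21 scores: the mean log2 CPM of 19 gene lists, Ppara and the total count. List genes that did not pass the filter on low values were left out of the mean, so the proximal intestine score held 5 of 9 genes. Genotype means were subtracted and libraries permuted within genotype (100000 permutations, two-sided). Of these 63 relations 0 had a Benjamini-Hochberg adjusted p under 0.05; the lowest was 0.801 for Pearson's r, with 0 unadjusted p under 0.05, and 0.739 for Spearman's rho, with 3. The highest and the lowest r were both with Ppara itself, 0.492 for Leap2 and −0.466 for Slc6a14, with Spearman's rho of 0.414 and −0.377. When control 5 and heterozygous 6, whose Ppara lay farthest out once genotype means were subtracted, were left out, r became 0.109 and −0.120, so both values rested on those libraries. With genotype means kept, r with Ppara had the opposite sign, −0.448 for Leap2 and 0.367 for Slc6a14. The villus tip score came next for Leap2, with r = 0.485. Scores of the proximal and distal intestine, with genotype means subtracted, had r of 0.406 and 0.227 with Leap2. These were 0.078 and −0.322 with Slc6a14, and 0.014 and 0.400 with Gimd1. With genotype means kept they were 0.105 and 0.444 for Leap2, 0.151 and −0.503 for Slc6a14, and −0.189 and 0.514 for Gimd1. With the distal minus proximal score as a covariate Gimd1 no longer passed the threshold in homozygous against control libraries.

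**Figure D5:**
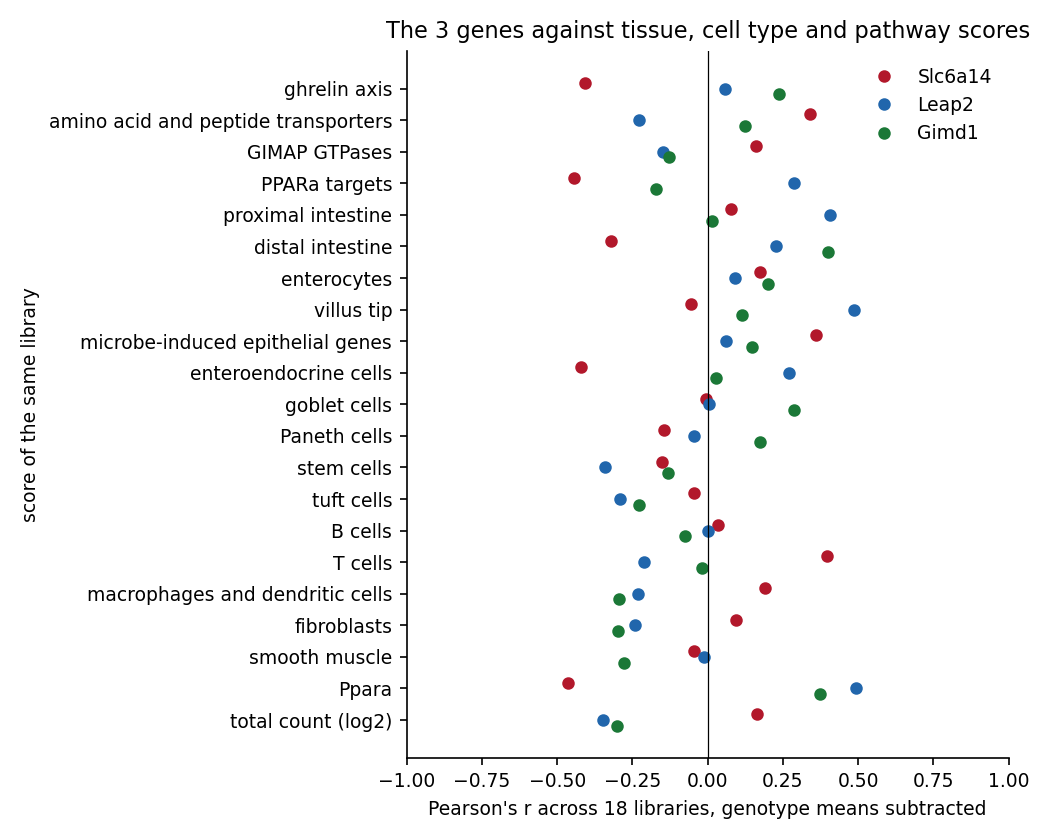
Pearson's r across 18 libraries, with genotype means subtracted, of Slc6a14, Leap2 and Gimd1 with each of 21 scores of the same library (19 gene lists, Ppara and the log2 total count). All points lie between −0.466 and 0.492.

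Markers of other cell types of the gut wall also differed between libraries. All 10 B cell genes had a lower fitted value in homozygous than in control libraries, with a median log2 difference of −2.79; 10 had an unadjusted p under 0.05 by edgeR and by DESeq2 but 0 by limma-voom, and 0 passed after adjustment by edgeR, DESeq2 or limma-voom; by edgeR 8.06% of all genes had such an unadjusted p and 0.411% passed. With the 4 libraries rich in these markers left out 9 of 10 had a lower fitted value and the median was −0.33. The B cell score had r of −0.151, 0.200 and 0.178 with Slc6a14, Leap2 and Gimd1 over the 18 libraries, 0.033, 0.00098 and −0.077 with genotype means subtracted, and within the 6 homozygous libraries −0.995, 0.879 and 0.591, where homozygous 1 alone was rich in B cell markers. With the B cell score as a covariate, an analysis added after the data had been seen, the homozygous against control differences were 1.79, −1.51 and −2.84. The smooth muscle score had r of 0.296, −0.338 and −0.457 over the 18 libraries and −0.045, −0.011 and −0.279 with genotype means subtracted, and all 10 of its genes had a higher fitted value in homozygous libraries (median 0.59), with 0 unadjusted p under 0.05 and 0 passing by edgeR, DESeq2 or limma-voom. The part of these cell types in the differences between genotypes was not tested beyond those values.

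Of the ghrelin pathway 3 of 7 listed genes passed the filter on low values. Ghrl, which encodes ghrelin, was too low for it: it read 1.03, 1.44 and 2.00 CPM at the lowest, median and highest in control libraries, 0.865, 1.24 and 1.46 CPM in heterozygous and 0.558, 0.699 and 1.26 CPM in homozygous libraries. In a fit of all 19314 protein-coding genes with a count its homozygous against control difference by edgeR was −0.96 (SE 0.23, adjusted p = 0.126). Ghrl had r of 0.824 with Leap2 over 18 libraries and 0.646 with genotype means subtracted. The score of the ghrelin list was the mean of the 3 genes that passed the filter, Bche, Lypla1 and Pcsk1, so Ghrl was not in it. This score had r of 0.553 with Leap2 over the 18 libraries and 0.058 with genotype means subtracted. Within control, heterozygous and homozygous libraries r was 0.840, −0.102 and −0.502. Ghsr, the receptor that LEAP2 blocks, was at 0 in 13 libraries and reached at most 0.0844 CPM. Bche, a serum esterase that inactivates ghrelin, differed by −0.50 (SE 0.11, adjusted p = 0.0625 by edgeR), and Pcsk1, a prohormone convertase, by −0.14 and Lypla1 by −0.0055. So 0 of 3 passed in homozygous against control by edgeR or limma-voom and 1 by DESeq2, with 1 unadjusted p under 0.05 by each tool. Over all 12645 genes 0.411% passed by edgeR and 136 genes by DESeq2, and 8.06% had an unadjusted p under 0.05 by edgeR.

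Among other amino acid and peptide transporters 19 of 21 listed genes were tested, and in homozygous against control libraries 7 had a fitted value above 0 and 12 below it, with a median log2 difference of −0.07, against −0.00483 over all genes. None of the 19 passed by edgeR, DESeq2 or limma-voom, and 0 had an unadjusted p under 0.05. Slc6a19, the main neutral amino acid transporter of the brush border, differed by 0.15 (SE 0.21, adjusted p = 0.909), Slc6a20a, an imino acid transporter, by −0.23 (SE 0.12, adjusted p = 0.643) and Slc15a1, the peptide transporter, by −0.02 (SE 0.18, adjusted p = 0.989). The 8 GIMAP genes of lymphocytes all had a lower fitted value in homozygous than in control libraries (median −0.80), with 8 unadjusted p under 0.05 by edgeR and DESeq2, 5 by limma-voom and 0 passing by any of them, where by edgeR 8.06% of all genes had such an unadjusted p and 0.411% passed. T cell markers had lower fitted values too: 4 of 8 listed were tested, with a median of −0.87, 4 unadjusted p under 0.05 by each tool, and 1 passing by DESeq2, where 136 of all 12645 genes passed, and 0 by edgeR or limma-voom. Their summed level was 20.9 to 71.3 CPM in control libraries, 14.8 to 48.1 CPM in heterozygous ones and 17.7 to 25.0 CPM in homozygous ones. In heterozygous against control libraries the 4 tested T cell genes differed by −0.71 to −0.67. There 3 had an unadjusted p under 0.05 by edgeR, where 5.29% of all genes did, and 4 by DESeq2 and limma-voom. None passed after adjustment by any of the tools. The GIMAP score was highest in control 2, control 3 and heterozygous 2, which were rich in B cell markers (4.71, 4.41 and 4.27 as a mean log2 CPM, against 3.22 to 3.40 in the other control libraries and 2.90 to 3.36 in homozygous ones). With the 4 libraries rich in B cell markers left out the median difference was −0.22 for the GIMAP genes and −0.64 for the T cell markers. The GIMAP score had r of 0.258 with Gimd1 over the 18 libraries and −0.129 with genotype means subtracted.

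PPARα targets were measured in the same libraries. All 24 tested targets had a higher fitted value both in homozygous and in heterozygous libraries than in control, with medians of 0.53 and 0.48. By edgeR 7 passed in each comparison, where 0.411% and 0.293% of all genes did; DESeq2 called 16 in each and limma-voom 7 and 8. Their score had r of 0.234, −0.361 and −0.592 with Slc6a14, Leap2 and Gimd1 over the 18 libraries, and −0.444, 0.286 and −0.172 with genotype means subtracted.

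Neighbouring genes could be tested for Leap2 and Gimd1 only. Within 100 kb, 6 of 15 neighbours of Leap2 and 2 of 4 of Gimd1 passed the filter on low values, and none of the 4 neighbours of Slc6a14 did. In homozygous against control libraries the 6 neighbours of Leap2 differed by −0.20 to 0.20 and the 2 of Gimd1 by −0.07 and −0.02 on the log2 scale. Adjusted p were at least 0.685 by edgeR, with 0 unadjusted p under 0.05 and 0 passing by DESeq2 or limma-voom. By edgeR 8.06% of all genes had such an unadjusted p and 0.411% passed. Aff4, whose nearest end is 351 bases from Leap2, differed by 0.09 (SE 0.18). In homozygous against heterozygous libraries 1 of the 8, Sowaha near Leap2, had an unadjusted p under 0.05 by edgeR (−0.35, SE 0.13). There 7.61% of all genes had such a p, and 0 of the 8 passed.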

How the data were processed

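RNA of whole-thickness ileum from 18 mice was sequenced, 1 library per mouse, so p-values measure the spread between mice. Per the labels and the study's methods, the authors made poly-A libraries with random primers, aligned read pairs to GRCm38 with STAR and counted uniquely aligned, unambiguous reads per gene of Ensembl release 101 with featureCounts. The deposited values are raw counts, CPM, FPKM and a log2 CPM. The genes, lists and tests were chosen with earlier results of these data known. Protein-coding genes over 3 CPM in at least 4 libraries were fitted on counts with edgeR 4.0.16 (R 4.3.3; TMM, glmQLFit and glmQLFTest, 1 coefficient per genotype, Benjamini-Hochberg over 12645 genes), with sex added for the sex comparison. All 3 genes passed the filter, with 14, 7 and 5 libraries over 3 CPM for Slc6a14, Leap2 and Gimd1; the last 2 did so through control and heterozygous libraries only, and Gimd1 only through female ones. On simulated counts for homozygous against control (12645 genes) the fit recovered 89 of 100 genes changed by 1 log2 unit and 98 of 100 changed by 2. Those genes were drawn at random from all genes tested, so the rates do not describe genes as variable as these 3. Log2 CPM for correlations and scores had a prior count of 2. DESeq2 1.42.0 and limma 3.58.1 served as alternatives. Libraries were taken as rich in B cell markers where the mean log2 CPM of that list was over 2. Named genes were the 3, Ppara, members of reported lists, the 5 highest and 3 lowest genes by Pearson's r with each, and genes within 100 kb.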

Additional observations from a re-analysis of the deposited data

Results flagged for a closer look

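The Slc6a14 value of control 5, 44.7 CPM, lay far from the other 5 control libraries, which reached at most 8.54 CPM, and that of heterozygous 4, 17.4 CPM, far from the other 5 heterozygous libraries, which reached at most 5.26 CPM. The gap to the nearest library, as a share of the range of the group of 6, was 0.818 and 0.763 on the CPM scale, above the 95% limit of Dixon's ratio. On the log2 CPM scale the ratios were 0.371 and 0.490, under the limit, and there homozygous 1 exceeded it instead, with 0.650. Chance exceeds the limit in about 1 of 20 groups, and 18 ends of 9 groups were examined for genes picked because they differed between libraries, so the values are a description. The same 2 libraries had 1.54 and 2.14 CPM of Leap2 and 0.844 and 1.22 CPM of Gimd1, the lowest Leap2 and Gimd1 of the control group and the lowest Gimd1 of the heterozygous group. Neither was rich in B cell markers.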

How the results depend on the processing

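The B cell covariate and the fit without the 4 libraries rich in B cell markers were added after the data had been seen. Homozygous against control, Slc6a14 stayed above 0 (1.79 to 3.06) and Leap2 and Gimd1 below it in 14 alternatives. Gimd1 missed the threshold with limma-voom (−2.29), 12 libraries (−2.76), sex (−2.19) or the distal minus proximal score (−2.63) as a covariate, or without the 4 libraries (−3.29); Leap2 passed it with DESeq2's test (−1.49). Leaving out 1 library gave −3.01 to −2.34 for Gimd1, −1.81 to −1.32 for Leap2 and, heterozygous against control, −0.23 to 0.16 for Leap2 and −1.74 to 0.15 for Slc6a14. Leap2 also turned sign there with all biotypes (0.0042), sex as a covariate (0.023) and the replicate block (0.0041). Female against male, Leap2 was −0.081 with the replicate block and −0.082 to 0.22 with 1 library left out, and Slc6a14 was 0.092 with limma-voom. For Slc6a14 with Leap2, Slc6a14 with Gimd1 and Leap2 with Gimd1, r was −0.785, −0.536 and 0.666 on linear CPM, and −0.799, −0.690 and 0.743 on log2 CPM with genotype means subtracted. Genes past the threshold were 52 homozygous against control (136 by DESeq2, 31 without the 4 libraries), 37 heterozygous against control (80 by DESeq2, 23 with 12 libraries, 22 with the block, 15 without the 4 libraries), 1 homozygous against heterozygous (10 by DESeq2, 0 in 11 other alternatives, 0 to 2 with 1 library left out) and 7 by sex (3 with at least 10 counts in every library). The study's methods name littermates, but the litter of each mouse was not given in the sources used here. Replicate numbers gave no clear pairing: same-numbered libraries deviated together (r over 0.1) in 9 of 18 pairs, from −0.606 to 0.642. Of the 18 libraries 2 correlated best with their own number. These values cannot show whether same-numbered mice shared a litter. The replicate block changed no call of the 3 genes. The causes were not tested. Counts of 22 to 260 behind the low values of the 3 genes limit their precision.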
